A study of Mus musculus with 6 samples.

Results

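The 37 genes described here encode Wnt ligands, their Frizzled receptors and the LRP5 and LRP6 co-receptors. They also encode secreted proteins of the SFRP and DKK antagonist families, the Axin scaffolds and the TCF/LEF transcription factors. They were drawn by symbol pattern from the 14943 symbols of the count table: 13 Wnt genes, 10 Frizzled genes, 4 SFRP genes, 2 DKK genes, Lrp5 and Lrp6, Axin1 and Axin2, and 4 TCF/LEF genes. RNA was sequenced from the peritoneum, the membrane lining the abdominal cavity, of male C57BL/6J mice that were wild type and 8 weeks old. EPS mice (3 libraries) modelled encapsulating peritoneal sclerosis, in which fibrous tissue encases the bowel. They received intraperitoneal injections of 4.25% peritoneal dialysis solution (100 mL/kg) and 0.3 mL of an agent the labels call SHS every day, and once a week 4 mg/kg of the endotoxin lipopolysaccharide. Control mice (3 libraries) were given saline in equal volume, and tissue of both groups was taken in week 3. The EPS mice received all agents together, so the agents cannot be told apart.

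Wnt proteins are secreted, lipid-modified signals. In the canonical branch a Wnt binds a Frizzled receptor and LRP5 or LRP6, the Axin-containing complex that destroys beta-catenin is switched off, and beta-catenin enters the nucleus to act through TCF/LEF factors. In other branches Wnts such as WNT5A act through Frizzled and ROR receptors without beta-catenin. The pathway is known for restraining fat cell differentiation and for its activity in fibrotic tissue, and the factors TCF-1 (gene Tcf7) and LEF-1 are also hallmarks of T lymphocytes.

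Libraries held 15419232 to 17684229 counts. A set of 10 exocrine pancreas genes took 13.5% of the counts in EPS 1 and at most 0.318% in each of the other libraries. Controls 1 and 2 resembled each other more than either resembled control 3. The chi-square per gene averaged 4.41 between them and 15.9 and 16.4 against control 3, where sampling noise alone would give about 1. Controls 1 and 2 were counted as separate samples, but a value above 1 does not show that they come from separate mice. Among EPS libraries, EPS 1 stood apart (412 and 406 against EPS 2 and EPS 3, which differed by 48.1). This average weighs genes with many counts most, and the part of the pancreas genes in it was not tested. The labels do not say that libraries come from separate mice, so p-values measure the spread between these libraries. Mesothelial markers, from the peritoneum's surface cells, were detected. The 8 listed genes summed to 42.6 to 268 CPM in EPS, lowest in EPS 3, and 129 to 206 CPM in control. Of these, edgeR called 0 (0 also at an unadjusted p under 0.05, and 1 by DESeq2). Krt8 and Krt19 varied widely in EPS 1 to 3 (86.3, 32.8 and 1.88 CPM, and 26.7, 81.0 and 5.35 CPM). Upk3b was lower in EPS without overlap (51.6, 42.7 and 11.3 CPM, against 95.5, 94.4 and 65.8 CPM in control). The other listed genes overlapped. CPM are counts scaled to library size, with sizes adjusted by the TMM method. Calls rest on adjusted p-values under 0.05 from edgeR's quasi-likelihood test over all genes. Without EPS 1, 10 members were called higher and 11 lower, beside 31% and 28.8% of all tested genes.

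In EPS peritoneum the TCF/LEF factors Tcf7 and Lef1, the antagonists Sfrp2 and Sfrp4 and the DKK family gene Dkk3 rose. So did the ligands Wnt4 and Wnt10a, the receptor Fzd10 and the scaffold Axin1. The receptors Fzd4, Fzd6 and Fzd8 fell, as did the co-receptor Lrp5, the ligands Wnt5a and Wnt10b, the antagonist Sfrp5, and the factors Tcf7l1 and Tcf7l2. Fzd1 and Fzd7 were also called lower, but most alternatives lost these calls. Of the 37 genes, 33 had enough reads to be tested, 9 were called higher and 11 lower, and 13 were not called. Over all 13980 tested genes 29.2% were called higher and 30.4% lower, so the share of members called (60.6%) lay near that of all genes (59.6%). In 23 of the 33 tested members the EPS and control values did not overlap, against 68.5% of all tested genes. The median log2 fold change was -0.29 over the tested members and -0.02 over all tested genes. Of the members tested, 3 (Wnt10a, Fzd10 and Lef1) reached the count minimum in EPS libraries alone. Changes are relative to the TMM scaling. Scaling by library totals instead moved the median of all genes by 0.43 on the log2 scale, and 11 members were then higher and 5 lower (Fzd4, Fzd8, Lrp5, Wnt5a and Wnt10b), beside 40.5% of all tested genes higher and 15.6% lower. Fewer cells of a type and less RNA per cell cannot be told apart in these tissue samples.

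**Figure D1:**
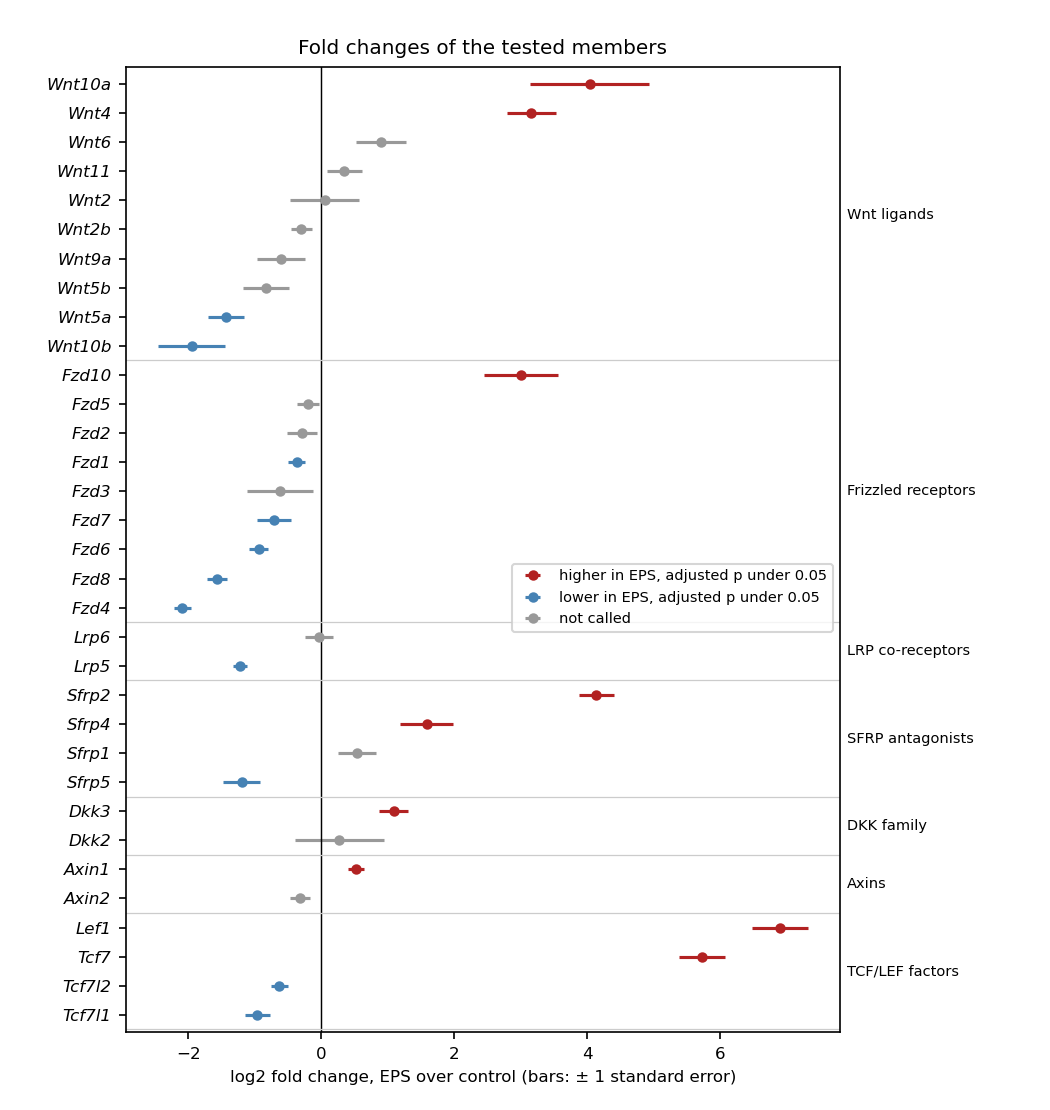
Log2 fold change of EPS over control for the 33 tested members, grouped by role; points are edgeR estimates, bars are 1 standard error to each side, and colours mark the call. Lef1 (6.90) and Tcf7 (5.73) lie farthest to the right, and Fzd4 (-2.09) and Wnt10b (-1.95) farthest to the left.

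The stretches of 250 bases before the annotated starts of Lef1, Sfrp2, Fzd4 and Sfrp5 are shown as examples: Lef1 had the largest fold change upward, Fzd4 the largest downward, and Sfrp2 and Sfrp5 are paralogues that moved in opposite directions. They are RefSeq windows of GRCm38.p6, read 5′ to 3′ on the gene's strand, for Lef1 (the first of 4 windows) chr3:131110047-131110296 (plus), Sfrp2 chr3:83766071-83766320 (plus), Fzd4 chr7:89404116-89404365 (plus) and Sfrp5 chr19:42202253-42202502 (minus). Capitals mark the letters GGGCGG, a GC box, on either strand.
Lef1: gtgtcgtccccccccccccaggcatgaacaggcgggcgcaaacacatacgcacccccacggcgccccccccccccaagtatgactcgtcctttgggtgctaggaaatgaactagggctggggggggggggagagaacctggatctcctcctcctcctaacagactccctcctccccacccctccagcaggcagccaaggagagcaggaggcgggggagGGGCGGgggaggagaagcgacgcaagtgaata
Sfrp2: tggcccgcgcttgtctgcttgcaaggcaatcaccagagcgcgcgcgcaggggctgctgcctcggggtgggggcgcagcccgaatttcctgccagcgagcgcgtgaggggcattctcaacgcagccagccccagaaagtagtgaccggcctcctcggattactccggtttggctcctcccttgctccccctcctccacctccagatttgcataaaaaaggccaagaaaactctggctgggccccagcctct
Fzd4: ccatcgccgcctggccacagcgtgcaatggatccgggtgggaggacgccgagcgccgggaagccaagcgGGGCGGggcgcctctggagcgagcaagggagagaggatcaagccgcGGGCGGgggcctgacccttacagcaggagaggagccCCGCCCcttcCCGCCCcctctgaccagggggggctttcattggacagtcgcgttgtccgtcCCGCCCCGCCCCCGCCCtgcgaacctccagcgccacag
Sfrp5: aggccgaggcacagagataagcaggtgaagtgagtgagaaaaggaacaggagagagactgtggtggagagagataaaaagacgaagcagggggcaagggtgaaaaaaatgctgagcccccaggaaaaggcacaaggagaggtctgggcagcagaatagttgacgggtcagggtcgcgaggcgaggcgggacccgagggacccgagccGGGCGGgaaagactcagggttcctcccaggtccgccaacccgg
The Fzd4 window holds 7 matches, some adjoining or overlapping, the Lef1 and Sfrp5 windows 1 each and the Sfrp2 window none. Windows were found for 24 of the 37 members, 32 windows in all. GGGCGG was present in 25 of them, against 32.7% of all 32851 windows. The member windows were richer in G and C throughout, with a median GC content of 67.4% against 52.4% and a median of 21 CpG against 6, and this motif was chosen after the windows were seen. TATAAA, the TATA box, was present in 6, against 12.4%. The letters CTTTGAT, a core that TCF/LEF factors bind, were searched on both strands and found in 2 windows, of Wnt11 and Wnt5b, against 3.21% of all windows. Neither gene was called. A match is a description of these letters and not a bound site.

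Among the ligands, 2 rose, 2 fell, 6 were not called and 3 had too few reads. Without EPS 2, 4 fell, beside 29.5% of all tested genes. Wnt5a, the main ligand of the beta-catenin-independent branch (chromosome 14, 28504750 to 28527448), had 19.2, 29.6 and 13.6 CPM in EPS 1 to 3, against 60.3, 60.5 and 47.4 CPM in controls 1 to 3. Every EPS library lay below every control. Its log2 fold change was -1.43 ± 0.27 (standard error; adjusted p = 0.00293).

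Wnt4, a ligand best known from the development of kidney and female reproductive tract (chromosome 4, 137277489 to 137299726), moved the other way. It had 14.8, 18.2 and 8.17 CPM in EPS and 2.07, 1.19 and 1.32 CPM in control. All EPS libraries were above all controls, with EPS 3 the lowest of them (3.16 ± 0.37 on the log2 scale, 8.97-fold, adjusted p = 1.79e-04). Wnt10b, a ligand that holds back fat cell differentiation, had 0.901, 1.69 and 0.396 CPM in EPS and 4.14, 4.49 and 3.04 CPM in control. The groups did not overlap (-1.95 ± 0.50, adjusted p = 0.0106). The log2 fold change was -2.61 without EPS 2. The call was lost when EPS 1 was left out and controls 1 and 2 were averaged (adjusted p = 0.0800, the highest of a range from 0.00103 over the alternatives).

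Wnt10a (chromosome 1, 74791516 to 74804179), a ligand of skin and tooth development, was close to the detection limit. It had 14, 20 and 14 counts in EPS 1 to 3 and 2, 0 and 0 in controls 1 to 3, a ratio of 19.0 with an exact 95% counting interval of 4.98 to 161 (adjusted p = 0.00524). Its neighbour Wnt6 (chromosome 1, 74771892 to 74785322) had 6.24, 5.73 and 4.21 CPM in EPS and 3.64, 3.50 and 1.52 CPM in control. These groups did not overlap, yet Wnt6 was not called (0.90 ± 0.37, adjusted p = 0.0671). It was called by DESeq2 (adjusted p = 0.032) and with library totals (0.0109), within a range from 0.0109 to 0.151.

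The remaining ligands gave no call. Wnt2b averaged 20.4 ± 3.20 CPM in EPS and 25.1 ± 2.74 CPM in control (SD, n = 3 each, as for all CPM below). Wnt11, a ligand of the beta-catenin-independent branch, averaged 8.75 ± 3.02 CPM in EPS and 6.89 ± 0.526 CPM in control. It was highest in EPS 3 and was called without EPS 1 (log2 fold change 0.62, adjusted p = 0.0494, in a range up to 0.859). Wnt9a averaged 4.59 ± 1.98 CPM in EPS and 6.99 ± 1.69 CPM in control, and was called without EPS 2 (-0.96, adjusted p = 0.0496, in a range up to 0.703). Wnt5b had 1.94, 1.55 and 1.68 CPM in EPS and 4.21, 2.71 and 2.25 CPM in control, without overlap (-0.83 ± 0.35, adjusted p = 0.0712). Wnt2 averaged 1.41 ± 0.939 CPM in EPS and 1.39 ± 0.344 CPM in control.

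The untested ligands were Wnt7b, Wnt9b and Wnt3. Wnt7b had 5, 221 and 0 counts in EPS 1 to 3 and 0, 1 and 1 in controls 1 to 3, so EPS 2 carried nearly all of its reads. Wnt9b had 2, 7 and 6 counts in EPS and 15, 25 and 9 in control. Wnt3 had 1 count in EPS 3 and none in the other libraries.

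**Figure D2:**
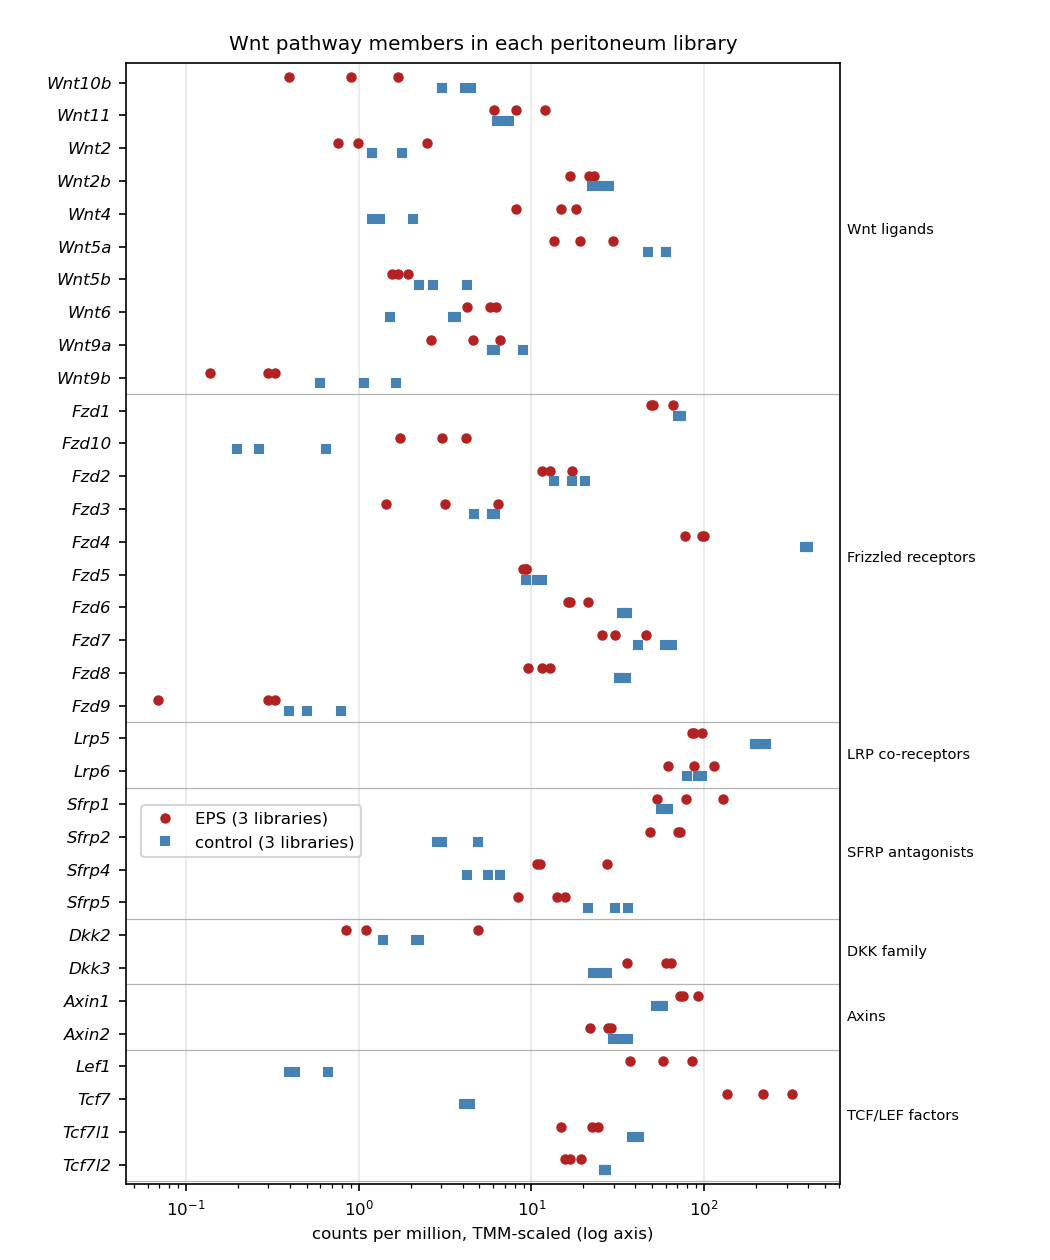
CPM (TMM-scaled, log axis) of the 34 members that had a count in every library, with EPS libraries as circles above and control libraries as squares below for each gene. Tcf7, Lef1 and Sfrp2 show the widest gaps with EPS higher, and Fzd4 a clear gap with EPS lower; the groups overlap for genes such as Lrp6, Sfrp1 and Wnt2.

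Levels of different genes were compared per kilobase of exon (RPKM). The ligands summed to 19.5 ± 4.44 RPKM in EPS and 21.8 ± 3.00 RPKM in control. With library totals they summed to 22.8 ± 7.70 RPKM in EPS and 18.9 ± 2.55 RPKM in control. The order of the group means flipped with the scaling, and the libraries of both groups overlapped either way. The makeup of the ligand sum, which does not depend on scaling, differed. Wnt5a held 13.3 ± 2.45% of the ligand sum in EPS and 32.9 ± 2.29% in control, whereas Wnt4 held 16.6 ± 4.20% in EPS and 1.66 ± 0.346% in control. Per length, Wnt4 stood above Wnt5a in each EPS library, by 0.17 to 0.52 on the log2 scale, and below it in each control, by -4.77 to -3.96. Wnt2b kept a similar part, 25.7 ± 6.82% in EPS and 27.7 ± 3.52% in control.

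The Frizzled receptors had 1 member higher, 5 lower, 3 not called and Fzd9 untested. Without EPS 3, control 1 or control 2, 3 were lower, as with upper-quartile factors or averaged controls, and with library totals 2 were. Over all tested genes, 30.4% were lower with all libraries and TMM factors. This share was 29.3% without EPS 3, and 25% without control 1 or without control 2. It was 28.9% with upper-quartile factors, 25.2% with averaged controls and 15.6% with library totals. Fzd4 (chromosome 7, 89404355 to 89413134), which with LRP5 and the tetraspanin TSPAN12 also receives the vascular ligand Norrin, had 97.7, 100.1 and 77.8 CPM in EPS 1 to 3. In controls 1 to 3 it had 382, 397 and 392 CPM, a level no EPS library approached. Its log2 fold change was -2.09 ± 0.13 (4.25-fold lower, adjusted p = 6.37e-06). Fzd8 had 11.5, 12.7 and 9.56 CPM in EPS and 32.7, 35.4 and 32.3 CPM in control. The groups were well apart (-1.57 ± 0.15, adjusted p = 5.01e-05).

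Fzd6, which takes part in planar cell polarity, had 16.8, 21.4 and 16.2 CPM in EPS and 33.6, 35.9 and 35.3 CPM in control, without overlap (-0.94 ± 0.14, adjusted p = 6.82e-04). With library totals it was not called (adjusted p = 0.0701, the highest of a range from 7.13e-07). The calls of Fzd7 and Fzd1 were the least secure. Fzd7 had 30.3, 46.0 and 25.6 CPM in EPS and 59.7, 65.4 and 41.4 CPM in control, with EPS 2 above control 3 (-0.71 ± 0.25, adjusted p = 0.0437). Fzd1 had 50.9, 66.2 and 49.3 CPM in EPS and 70.3, 72.2 and 73.2 CPM in control (-0.37 ± 0.13, adjusted p = 0.0346). Of 15 alternatives, 8 lost the call of Fzd7 and 11 that of Fzd1. Their adjusted p ranged from 0.00333 to 0.440 and from 0.00306 to 0.818, and with library totals Fzd1 stood at 0.06. The call of Fzd7 was lost without EPS 1, EPS 3, control 1 or control 2, and that of Fzd1 without each library but EPS 2.

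Fzd10 (chromosome 5, 128600844 to 128604093) was the receptor that rose, from low counts: 25, 65 and 84 in EPS 1 to 3 and 9, 3 and 4 in controls 1 to 3. In CPM this was 1.73, 3.05 and 4.16 in EPS and 0.643, 0.198 and 0.265 in control. All EPS libraries lay above all controls (3.01 ± 0.56, adjusted p = 0.00205; 3.65 without control 1). Fzd2 (13.9 ± 3.03 CPM in EPS and 17.0 ± 3.53 CPM in control), Fzd3 (3.65 ± 2.51 CPM in EPS and 5.57 ± 0.819 CPM in control) and Fzd5 (9.18 ± 0.263 CPM in EPS and 10.6 ± 1.12 CPM in control) were not called. Fzd3 was called without EPS 1 (log2 fold change -1.21, adjusted p = 0.0208, in a range up to 0.579). Fzd9 had 1, 7 and 6 counts in EPS and 7, 12 and 6 in control.

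The summed Frizzled level was 46.4 ± 7.44 RPKM in EPS and 107 ± 4.35 RPKM in control, and it was also lower in EPS with library totals (54.2 ± 14.4 RPKM in EPS against 93.0 ± 2.62 RPKM in control). Fzd4 held 29.6 ± 2.88% of that sum in EPS and 54.2 ± 1.90% in control. Fzd1 held 28.4 ± 0.974% in EPS and 16.0 ± 0.759% in control, and Fzd2 8.13 ± 0.910% in EPS and 4.31 ± 0.730% in control. In EPS, Fzd1 and Fzd4 stood at about the same level per length, with Fzd1 over Fzd4 at -0.26, 0.08 and 0.02 on the log2 scale in EPS 1 to 3. In controls that ratio was -1.76, -1.78 and -1.74.

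**Figure D3:**
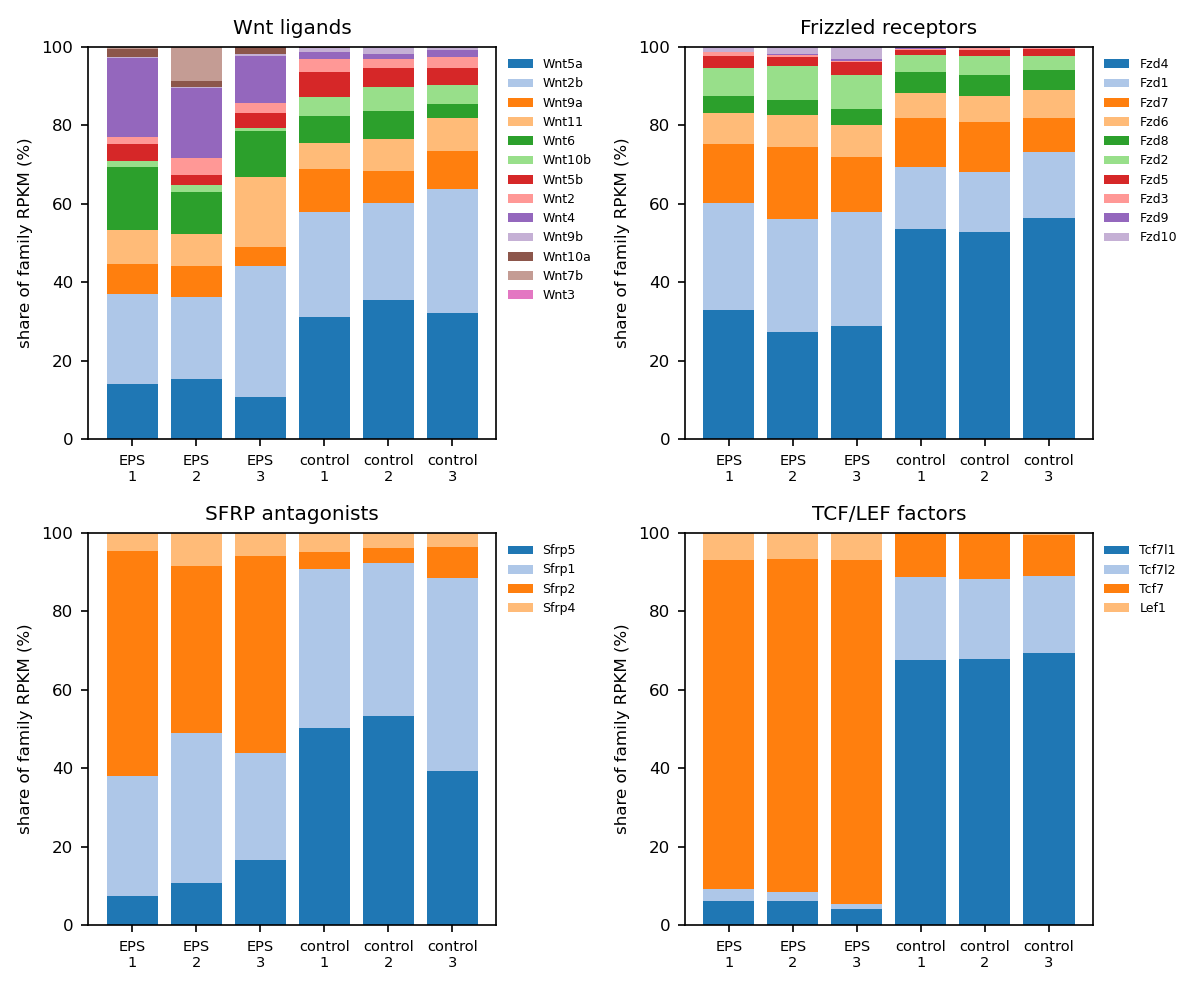
Makeup of 4 families in each library, as the share of each gene in its family's summed RPKM (percent), with the EPS libraries left of the controls. Fzd4 shrinks to 29.6% of the Frizzled sum in EPS, against 54.2% in control, and Tcf7 makes up 85.5% of the TCF/LEF sum in EPS, against 10.9% in control.

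The co-receptors parted. Lrp5 (chromosome 19, 3584828 to 3686564) had 84.8, 96.7 and 87.1 CPM in EPS and 198, 199.8 and 228 CPM in control. The groups were far apart (-1.22 ± 0.11, adjusted p = 3.35e-05). Lrp6, the closely related co-receptor on chromosome 6, had 115, 86.8 and 61.6 CPM in EPS and 97.2, 92.3 and 79.8 CPM in control, a full overlap (-0.03 ± 0.21, adjusted p = 0.898). Lrp6 over Lrp5 per length was -0.06, -0.64 and -0.99 on the log2 scale in EPS 1 to 3, and -1.51, -1.60 and -2.00 in controls 1 to 3.

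Markers of fat cells and of blood endothelium fell in the same comparison. All 8 fat cell genes were called lower, with a sum of 1489 to 2210 CPM in EPS and 19827 to 21190 CPM in control. All 7 endothelial genes were called lower, with 970 to 1186 CPM in EPS and 2256 to 2449 CPM in control. Relative to the fat cell sum, Fzd4 was higher in EPS (3.56 to 6.56%) than in control (1.83 to 1.98%), and so was Lrp5 (3.99 to 5.70% in EPS against 0.943 to 1.15% in control). Relative to the endothelial sum, Fzd4 was lower in EPS (6.56 to 10.1%) than in control (16.0 to 17.4%), while Lrp5 overlapped (7.34 to 8.74% in EPS and 8.16 to 10.1% in control), as did Fzd6 (1.37 to 1.88% in EPS and 1.40 to 1.57% in control). Fzd8 was higher relative to the fat cell sum (0.438 to 0.773% in EPS against 0.157 to 0.167% in control) and lower relative to the endothelial sum (0.806 to 1.19% in EPS against 1.37 to 1.45% in control). Among other members that fell, Sfrp5 (0.559 to 0.704% in EPS against 0.107 to 0.171% in control) and Wnt5a (0.621 to 1.34% in EPS against 0.239 to 0.290% in control) were higher relative to the fat cell sum. Wnt10b overlapped there (0.0181 to 0.0766% in EPS and 0.0153 to 0.0212% in control). The part of these cell types in the values was not tested.

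Among the SFRP and DKK genes, Sfrp2, Sfrp4 and Dkk3 rose, Sfrp5 fell, and Sfrp1 and Dkk2 were not called. SFRP proteins bind Wnts outside the cell through a Frizzled-like domain. Sfrp2 (chromosome 3, 83766321 to 83774316) had 72.8, 70.2 and 48.4 CPM in EPS and 2.86, 3.04 and 4.89 CPM in control. Each EPS library was several times above every control (4.14 ± 0.26 on the log2 scale, 17.7-fold, adjusted p = 9.87e-06). Annotated antisense exons cover 16.1% of its exon length, and the libraries carry no stated strand, so reads of the antisense gene cannot be told apart.

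Sfrp4 had 11.2, 27.3 and 10.8 CPM in EPS and 6.57, 5.62 and 4.23 CPM in control. EPS 2 stood highest, and the groups did not overlap (1.59 ± 0.40, adjusted p = 0.0105). Sfrp5, an antagonist that fat tissue secretes (chromosome 19, 42197971 to 42202252), had 8.31, 15.6 and 14.1 CPM in EPS and 30.4, 36.1 and 21.3 CPM in control. All EPS values were lower (-1.20 ± 0.28, adjusted p = 0.00670), and the call was lost with library totals (adjusted p = 0.0841, the highest of a range from 2.43e-04). Sfrp1 had 78.2, 129 and 53.6 CPM in EPS and 56.3, 61.1 and 61.5 CPM in control, with EPS 3 below all controls (0.54 ± 0.29, adjusted p = 0.148). It was called without EPS 3 (0.80, adjusted p = 0.0150) and with library totals (0.98, 0.0247), in a range up to 0.481.

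Within the SFRP sum, which was 60.1 ± 16.1 RPKM in EPS and 32.0 ± 3.60 RPKM in control, the leading gene changed. Sfrp2 held 50.1 ± 7.55% in EPS and 5.36 ± 2.25% in control. Sfrp5 held 11.6 ± 4.62% in EPS and 47.6 ± 7.37% in control. Sfrp1 held 32.1 ± 5.67% in EPS and 43.0 ± 5.50% in control.

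Dkk3, a divergent member of the Dickkopf family (chromosome 7, 112116017 to 112159057), had 64.6, 60.2 and 35.6 CPM in EPS and 27.3, 25.2 and 22.6 CPM in control. The groups did not overlap (1.09 ± 0.22, adjusted p = 0.00357). Dkk2, which binds LRP co-receptors, had 1.11, 4.93 and 0.842 CPM in EPS and 2.14, 2.25 and 1.39 CPM in control. EPS 2 was above and the other EPS libraries below all controls (0.27 ± 0.67, adjusted p = 0.751).

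Fibroblast markers moved unevenly: of 8, 5 were called higher and 1 lower. The collagen genes Col1a1 and Col1a2 had log2 fold changes of 2.28 and 1.91 (adjusted p = 1.11e-04 and 1.51e-04), Lum, Dpp4 and Pi16 also rose, and the receptor gene Pdgfrb fell (-0.41, adjusted p = 0.0275). Pdgfra (0.04, adjusted p = 0.824) and Dpt (-0.52, adjusted p = 0.0634) were not called. Their sum, most of it from both collagens, was 3755 to 6631 CPM in EPS and 1618 to 1681 CPM in control. Relative to that sum, Sfrp2 was higher in EPS (1.06 to 1.66%) than in control (0.170 to 0.302%), as was Wnt4 (0.218 to 0.337% in EPS against 0.0716 to 0.123% in control). Sfrp4 (0.254 to 0.412% in EPS and 0.262 to 0.391% in control) and Dkk3 (0.908 to 1.47% in EPS and 1.40 to 1.62% in control) overlapped, and Sfrp1 was lower in EPS (1.43 to 1.95%) than in control (3.35 to 3.80%). The part of fibroblast content in these values was not tested.

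The Axin scaffolds, which hold together the complex that destroys beta-catenin, differed in outcome. Axin1 (chromosome 17, 26138688 to 26195811) had 73.0, 75.6 and 92.6 CPM in EPS and 57.6, 56.3 and 52.6 CPM in control. The groups did not overlap, at a modest distance (0.53 ± 0.12, 1.45-fold, adjusted p = 0.00471). Axin2 (chromosome 11, 108920349 to 108950783), a target that canonical signalling switches on in many tissues and that feeds back on it, had 28.8, 27.8 and 21.9 CPM in EPS and 32.6, 36.1 and 29.6 CPM in control. All EPS values were below the controls, but Axin2 was not called (-0.32 ± 0.15, adjusted p = 0.0897), and with library totals it stood at 0.09.

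The TCF/LEF factors showed the widest differences. Tcf7 (chromosome 11, 52252371 to 52283014) had 135, 221 and 322 CPM in EPS 1 to 3, against 4.07, 4.43 and 4.23 CPM in controls 1 to 3. The lowest EPS library was far above the highest control (5.73 ± 0.35, 53.1-fold, adjusted p = 1.34e-05). Lef1 (chromosome 3, 131110471 to 131224356) had 37.4, 57.7 and 85.4 CPM in EPS and 0.428, 0.396 and 0.661 CPM in control. Its EPS libraries stood in the same order as those of Tcf7 (6.90 ± 0.42, 119-fold, adjusted p = 1.01e-05). The control value of Lef1 rests on 22 counts in all, and annotated antisense exons cover 13.7% of its exon length.

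Tcf7l1, mostly a repressor in the absence of a Wnt signal, had 14.8, 24.2 and 22.3 CPM in EPS and 38.1, 39.6 and 41.9 CPM in control. Tcf7l2, the factor best known from gut and metabolic tissue, had 16.7, 19.3 and 15.7 CPM in EPS and 26.6, 27.0 and 26.4 CPM in control. Neither gene overlapped between groups (-0.96 ± 0.19, adjusted p = 0.00257, and -0.63 ± 0.13, adjusted p = 0.00354). With library totals both calls were lost (adjusted p = 0.133 and 0.441, the highest over the alternatives, whose lowest were 9.75e-05 and 8.40e-04). Per length, Tcf7l1 held 5.48 ± 1.22% of the TCF/LEF sum in EPS and 68.3 ± 0.983% in control, and Tcf7 85.5 ± 1.98% in EPS and 10.9 ± 0.412% in control. With the longest transcript as the length, the share of Tcf7 was 76.0% in EPS and 7.76% in control.

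Markers of several leukocyte types rose in the same libraries. All 9 T cell genes found in the table were called higher, none was at 0 in the controls, and their sum was 360, 510 and 799 CPM in EPS 1 to 3 and 9.21, 8.85 and 13.7 CPM in controls 1 to 3. All 6 B cell genes were also called higher (sums of 891, 536 and 840 CPM in EPS 1 to 3, against 6.87 to 11.7 CPM in control), as were all 6 macrophage genes (1793 to 2013 CPM in EPS, against 404 to 434 CPM in control). So were all 7 neutrophil genes, whose sums of 575, 797 and 1908 CPM in EPS 1 to 3 stood in the same order as the T cell sums, against 4.17 to 5.09 CPM in control. Tcf7 amounted to 37.6, 43.2 and 40.3% of the T cell sum in EPS and to 44.2, 50.0 and 30.9% in control, so the groups overlapped. Lef1 amounted to 10.4, 11.3 and 10.7% of it in EPS and to 4.65, 4.48 and 4.83% in control, without overlap. The part of leukocyte content in either gene was not tested.

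**Figure D4:**
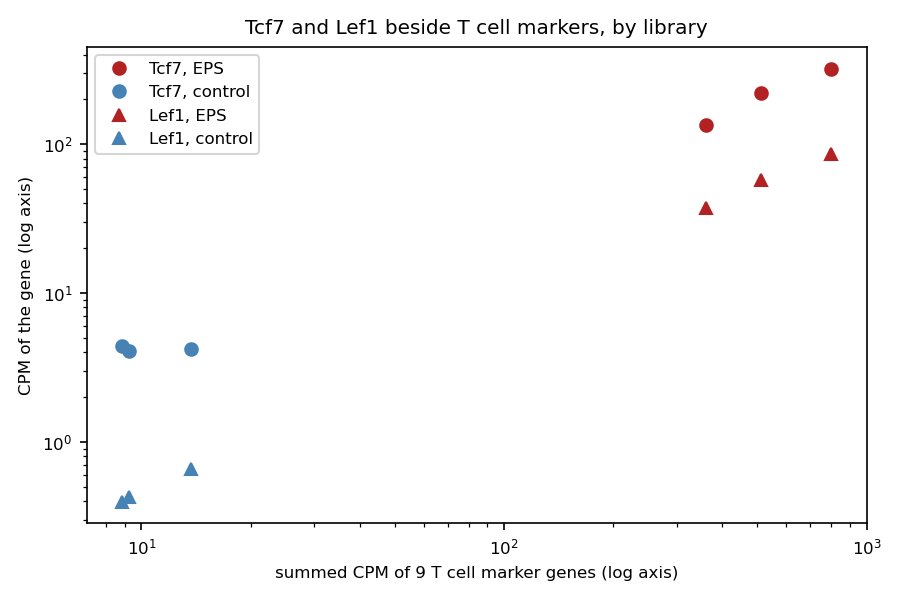
CPM of Tcf7 (circles) and Lef1 (triangles) against the summed CPM of 9 T cell markers in each library, both on log axes, with EPS in red and control in blue. The EPS libraries lie at 360 to 799 CPM of marker sum and the controls at 8.85 to 13.7 CPM, with Tcf7 and Lef1 higher in EPS. Both genes rise with the sum among the EPS libraries, but Tcf7 does not among the controls.

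Of 97 other genes of the pathway, listed by role, 92 were in the table and 86 were tested. Of these, 20 were called higher and 28 lower, beside 29.2% and 30.4% of all tested genes. Their median log2 fold change was -0.20. With library totals, 29 were higher and 12 lower, again beside 40.5% and 15.6% of all tested genes. A list of R-spondins, their receptors, ligand export and other ligand partners had 1 gene higher and 3 lower of 9, and edgeR called 0 of its 5 tested R-spondin and LGR genes (1 at an unadjusted p under 0.05, and 2 by DESeq2). Tspan12, the partner of FZD4 and LRP5 in Norrin reception, fell with them, to 13.6 ± 4.16 CPM in EPS, against 101 ± 8.63 CPM in control (-2.89 ± 0.21, adjusted p = 1.96e-05). Porcn, which attaches the lipid to Wnts, and Wls, which carries them to the cell surface, fell by 1.43 ± 0.27 and 0.62 ± 0.12 on the log2 scale (adjusted p = 0.00243 and 0.00222), Wls not with library totals (adjusted p = 0.413, from a low of 7.44e-05). Cthrc1, a secreted matrix protein that can bind Wnt and Frizzled, averaged 7.31 ± 3.50 CPM in EPS and 0.809 ± 0.272 CPM in control (3.16 ± 0.47, adjusted p = 6.22e-04).

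Of 11 tested inhibitors that are not among the members, 6 were higher and 2 lower, beside 29.2% and 30.4% of all tested genes. Frzb, which encodes a further SFRP protein and is not in the SFRP sums above, averaged 7.03 ± 2.24 CPM in EPS and 0.591 ± 0.226 CPM in control (3.56 ± 0.42, adjusted p = 1.87e-04). Rnf43, a ubiquitin ligase that removes Frizzled receptors from the cell surface, averaged 9.96 ± 3.40 CPM in EPS and 0.334 ± 0.234 CPM in control (4.85 ± 0.50, adjusted p = 8.76e-05; 5.54 without control 2). Draxin, a secreted guidance protein, averaged 4.87 ± 1.30 CPM in EPS and 0.358 ± 0.322 CPM in control (3.73 ± 0.57, adjusted p = 7.29e-04; 4.76 without control 2). Apcdd1 averaged 57.7 ± 25.2 CPM in EPS and 215 ± 27.0 CPM in control (-1.90 ± 0.33, adjusted p = 0.00216), and Trabd2b 19.2 ± 6.19 CPM in EPS and 60.5 ± 10.7 CPM in control (-1.65 ± 0.26, adjusted p = 0.00104).

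Co-receptors and the polarity arm had 4 genes higher and 7 lower of 18, or 5 and 3 with library totals. Over all tested genes the shares were 29.2% and 30.4%, or 40.5% and 15.6% with library totals. The polarity cadherin gene Celsr1 averaged 59.1 ± 24.6 CPM in EPS and 9.80 ± 1.62 CPM in control (2.59 ± 0.30, adjusted p = 2.44e-04). Ror1, a receptor of WNT5A, and Ptk7 rose by 0.87 ± 0.21 and 1.14 ± 0.26 on the log2 scale (adjusted p = 0.00788 and 0.00564), Ror1 not when EPS 1 was left out and controls 1 and 2 were averaged (adjusted p = 0.0504, from a low of 3.38e-04). The heparan sulfate proteoglycan gene Gpc4 fell by 1.76 ± 0.15, Daam2 by 1.23 ± 0.17 and Gpc3 by 0.60 ± 0.08 (adjusted p = 3.41e-05, 4.41e-04 and 4.94e-04), Gpc3 not with library totals (adjusted p = 0.406, from a low of 7.13e-06).

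In the cytoplasmic core, 7 of 22 genes were lower and 15 were not called, beside 30.4% of all tested genes lower and 29.2% higher. None was higher by edgeR with TMM factors and all libraries (0 also at an unadjusted p under 0.05). By DESeq2, with RLE or upper-quartile factors, and without EPS 1 or EPS 3, 1 was higher, beside 29.5 to 31.5% of all tested genes. With library totals 3 were higher and 2 lower, beside 40.5% and 15.6% of all tested genes. The Dishevelled-binding inhibitors Nkd1 and Nkd2 fell by 1.68 ± 0.19 and 1.91 ± 0.20 (adjusted p = 1.54e-04 and 8.47e-05). Dvl1, a Dishevelled gene, averaged 54.5 ± 1.43 CPM in EPS and 96.2 ± 6.67 CPM in control (-0.82 ± 0.09, adjusted p = 1.61e-04), but was not called with library totals (adjusted p = 0.0906, from a low of 8.58e-10). Nuclear partners split into 4 higher and 5 lower of 15, beside 29.2% and 30.4% of all tested genes. With library totals 7 were higher and 1 lower, beside 40.5% and 15.6% of all tested genes. Without EPS 3, control 1 or control 2, 3 were lower, beside 29.3%, 25% and 25% of all tested genes. The co-repressor gene Tle4 rose by 1.28 ± 0.13, the acetyltransferase gene Ep300 by 0.71 ± 0.17 and the chromatin remodeller gene Chd8 by 0.65 ± 0.11 (adjusted p = 9.08e-05, 0.00738 and 0.00113). Pygo1, which links BCL9 to chromatin, fell by 1.45 ± 0.23, and Ctnnbip1, an inhibitor of beta-catenin, by 0.91 ± 0.16 (adjusted p = 8.66e-04 and 0.00146). Bcl9l fell by 0.47 ± 0.10 (adjusted p = 0.00389). Ctnnbip1 and Bcl9l were not called with library totals (adjusted p = 0.132 and 0.879, from lows of 6.21e-05 and 6.10e-04).

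Genes often read as targets of beta-catenin moved in both directions, with 6 higher and 6 lower of 16 tested. Over all tested genes 29.2% were higher and 30.4% lower. Cd44, a hyaluronan receptor of activated leukocytes and other cells, averaged 167 ± 16.8 CPM in EPS and 25.2 ± 1.74 CPM in control (2.73 ± 0.12, adjusted p = 2.13e-06). Myc, a growth regulator, averaged 65.4 ± 5.44 CPM in EPS and 15.7 ± 2.81 CPM in control (2.06 ± 0.15, adjusted p = 1.45e-05). The third riser by the naming rule was Rnf43, given above. Gja1, a gap junction gene, averaged 41.8 ± 0.809 CPM in EPS and 173 ± 10.7 CPM in control (-2.05 ± 0.10, adjusted p = 2.63e-06), the Notch ligand gene Jag1 40.4 ± 3.46 CPM in EPS and 107 ± 4.93 CPM in control (-1.41 ± 0.10, adjusted p = 1.49e-05), and Nkd1 23.1 ± 6.27 CPM in EPS and 74.1 ± 6.75 CPM in control.

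**Figure D5:**
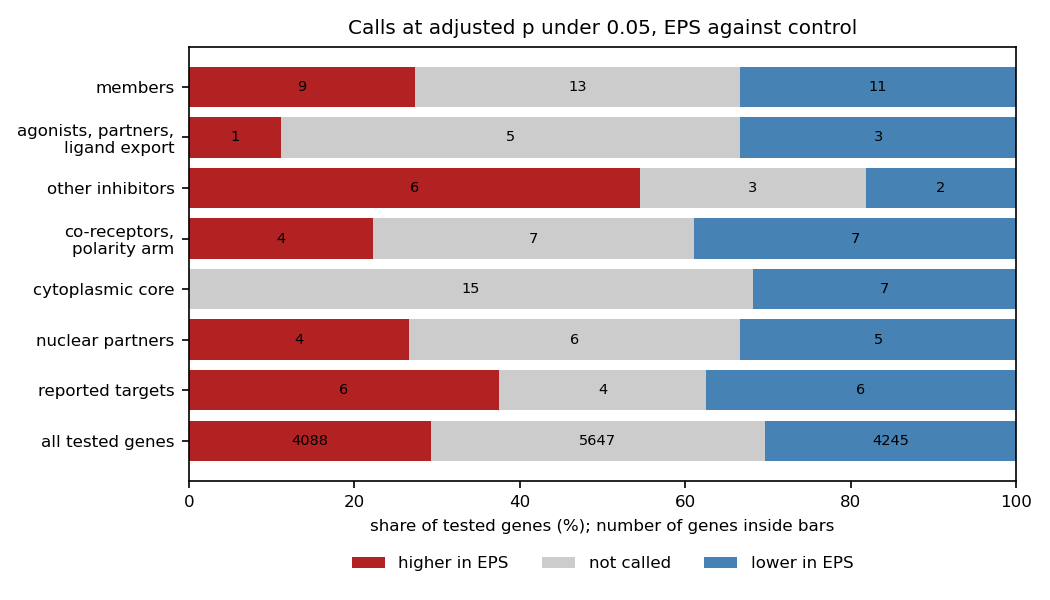
Share of tested genes called higher in EPS, not called and called lower in EPS (percent of each row, with the number of genes inside the bars) for the members, 6 lists of other Wnt pathway genes and all tested genes. The members (9 higher, 11 lower) resemble all tested genes in their split, and the cytoplasmic core has no gene called higher.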

How the data were processed

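The deposited table holds raw read counts per gene symbol, as its whole numbers and differing totals show. Per the labels' protocols, polyadenylated RNA was fragmented and copied with random primers, with no strand-marking step named. The build was mm10, per the submitters' processing notes. No aligner, counter or annotation is named (not given in the sources used here), nor how reads matching several genes were treated.

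Genes passing edgeR's filterByExpr (13980 of 14943) were fitted with TMM factors and the robust quasi-likelihood F-test (edgeR 4.0.16, R 4.3.3) over the 3 EPS and 3 control libraries, with Benjamini-Hochberg adjustment over all of them. Standard errors were taken as the absolute log2 fold change over the root of F. DESeq2 1.42.0, limma-voom (limma 3.58.1), other scalings, no filter, averaged controls, a replicate term and left-out libraries were alternatives. Leaving out EPS 1 with controls 1 and 2 averaged was added after seeing the data. Intervals are exact (Clopper-Pearson) and cover counting error only. Gene bodies (1-based) and exon-union lengths come from GENCODE M21 (GRCm38), where all 37 members were found. The authors' annotation may differ, so RPKM are approximate. Annotated genes share exon sequence with 9 members.

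Members, gene lists and motifs were chosen with earlier results of these data known, and GGGCGG and TATAAA after seeing the windows. Named genes are all members and, in each other list, up to 3 called genes per direction with the lowest adjusted p. The test was checked on simulated data. Protein sequences were not used here.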

Additional observations from a re-analysis of the deposited data

How the results depend on the processing

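Over 15 alternatives, 9 to 11 members were called higher, and 8 to 13 lower except with library totals, where 5 were. Of all tested genes, 24.4 to 31.5% were higher and 23.7 to 31.4% lower over the same alternatives. With library totals these shares were 40.5% and 15.6% instead. Other pathway genes called lower numbered 21 to 32, except 12 with library totals. Without 1 library at a time, 9 to 10 members were higher and 9 to 13 lower, and 18 to 22 other genes were higher and 22 to 30 lower. Of all tested genes, 24.4 to 31% were then higher and 25 to 29.5% lower. With library totals the log2 fold changes of Wnt2b, Fzd1, Fzd2, Fzd5, Lrp6 and Axin2 were positive, at 0.15, 0.06, 0.16, 0.22, 0.35 and 0.09. That of Lrp6 was also 0.01 with RLE factors, 0.00 with upper-quartile factors, 0.01 with DESeq2, 0.00 with controls 1 and 2 averaged, 0.16 without EPS 3 and 0.02 without control 1. That of Wnt2 was -0.06 with limma-voom, -0.64 without EPS 2 and -0.06 without control 2 or control 3 (-0.64 to 0.39 over left-out libraries), and that of Dkk2 -0.10 with limma-voom and -0.98 without EPS 2 (up to 0.67 over left-out libraries); Lrp6 ranged from -0.21 to 0.16 over these. With the longest transcript as length, the share of Tcf7 was 76.0% in EPS and 7.76% in control, and in control that of Lrp5 was 70.9% and that of Axin1 65.7%. The causes were not tested, apart from the shift that library totals bring by construction.

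The labels do not say whether the replicate numbers pair the libraries. Deviations of same-numbered libraries correlated at 0.201, -0.0952 and 0.236, and those of differently numbered ones at -0.317 to 0.195. With 3 libraries per group these values cannot settle the pairing. With the replicate block, 10 members were higher and 11 lower, and 18 other pathway genes were higher and 31 lower. Of all tested genes, 28.2% were higher and 29.8% lower with this block. Wnt6 was then called (0.97, adjusted p = 0.0322, in a range from 0.0109 to 0.151), and Wnt2 (-0.09) and Dkk2 (-0.11) changed sign. Depth limits Wnt3, Wnt7b, Wnt9b, Fzd9 and Wnt10a, whose control level rests on 2 counts, both in control 1, so that its fitted log2 fold change of 4.04 was 6.91 without that library.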

Other observations

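EPS 2 was most often the highest EPS library in these genes, although EPS 1 was the one that stood apart by the averaged chi-square. That average weighs genes with many counts most, and 10 exocrine pancreas genes took 13.5% of the counts in EPS 1. The part of the pancreas genes in it was not tested. Of the 37 members, the untested ones included, 21 had their highest EPS value in EPS 2, 9 in EPS 1 and 7 in EPS 3. Over all genes, tested ones only, the shares were 29.7% in EPS 2, 34.7% in EPS 1 and 35.6% in EPS 3. The members highest there include ligands (Wnt4, Wnt5a, Wnt7b), receptors (Fzd1, Fzd4, Fzd7) and antagonists (Sfrp1, Sfrp4, Sfrp5). The summed level of 5 smooth muscle genes was 3402 CPM in EPS 2 and 1265 and 1154 CPM in EPS 1 and EPS 3, against 4505 to 4975 CPM in control, and that of the fibroblast genes was 6631 CPM in EPS 2 and 4384 and 3755 CPM in EPS 1 and EPS 3. Their part in the pattern was not tested.

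Lef1 and Tcf7 kept a nearly constant ratio among the EPS libraries. Per length, Lef1 over Tcf7 was -3.60, -3.68 and -3.66 on the log2 scale in EPS 1 to 3, although each gene varied more than 2-fold among these libraries. In controls 1 to 3 it was -4.99, -5.22 and -4.42, but these ratios rest on only 6, 6 and 10 counts of Lef1.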
